A study of Mus musculus with 8 samples.

Results

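Myotubes are multinucleated cells that form when myoblasts leave the cell cycle and fuse. The arrays described here hold the RNA of the control myotubes of this study, the cultures transduced with Ad-mCherry, an adenovirus that carries a red fluorescent protein and no Cre recombinase. They were taken by their label, which gave 4 arrays of the 8 in the series (replicates 1 to 4). The other 4 arrays, of cultures that received Ad-Cre-mCherry, enter no value below. The cultures came from *RhoA* flox/flox mice, whose floxed *RhoA* alleles stay unrecombined without Cre, so these myotubes serve as the *RhoA*-expressing state. The mice also carried the *Pax7*-nGFP transgene, which marks satellite cells (SCs), the muscle stem cells, with nuclear green fluorescence and was used to sort them from hindlimb muscles by FACS. The sorted cells were expanded as myoblasts and differentiated for 3 days. Per the methods, Ad-mCherry was added after those 3 days, and the cells carried it for 48 h before harvest. The labels name day 3 of differentiation. Neither the labels nor the methods state the age or sex of the mice. The labels count 4 replicates, whereas the methods name fewer independent cultures than that, so which arrays share a culture is not known and the spread between them may be in part technical.

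During differentiation, the myogenic factors *Myf5* and *Myod1* hand over to *Myog* and the Mef2 proteins, and genes of the sarcomere, the contractile unit, are switched on. Young muscle cells use embryonic and perinatal myosin heavy chains, cardiac forms of actin and troponin T and the gamma subunit of the acetylcholine receptor. Adult fibres replace these with fast or slow isoforms, a change that depends in part on innervation and load, and a culture without neurons lacks the first. A baseline description of these myotubes therefore turns on which isoforms were present and on how alike the 4 arrays were.

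Levels are the deposited values, on a log2 scale, on which a step of 1 is a factor of 2. Each gene is represented by 1 row of the array. Rows differ in their probes, so the order of 2 genes by level is an order of array signal and not of transcript numbers. Only the same gene across arrays is compared as an amount. As a reference for rows that carry no muscle signal, the 1091 olfactory receptor genes, which are used in the nose, had a median level of 3.64, and 95% of them lay below 4.86. This value is called the olfactory level here. Of 19505 genes, 9832 (50.4%) had a mean over the 4 arrays above it (9796 without replicate 3), 2658 had a mean of at least 10 and 213 of at least 16. Each count of listed genes above this level is to be read beside that share of 50.4%.

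**Figure D1:**
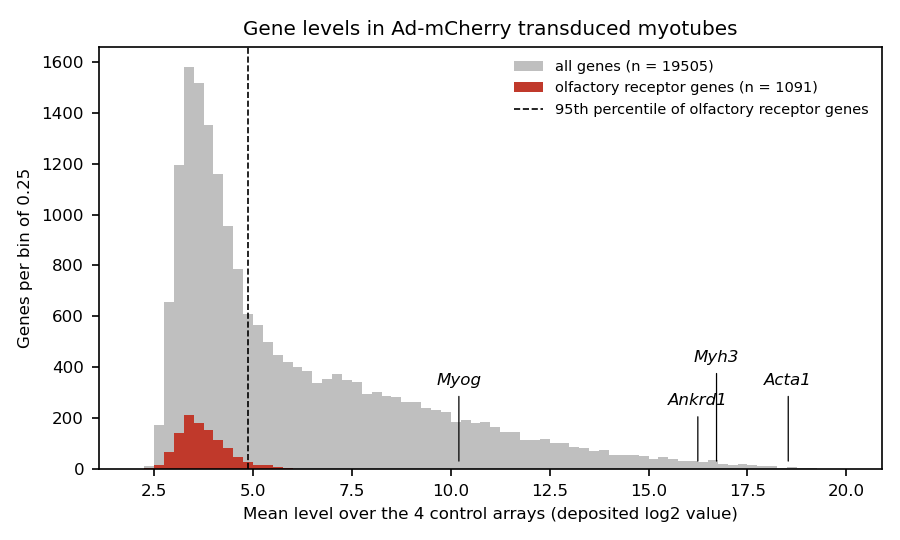
Number of genes (y axis, in bins of 0.25) by mean level over the 4 control arrays (x axis, deposited log2 value), for all 19505 genes in grey and the 1091 olfactory receptor genes in red. The dashed line is the olfactory level of 4.86, and the 4 myotube markers *Myog*, *Ankrd1*, *Myh3* and *Acta1* lie to the right of it, between 10.21 and 18.53.

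The 4 arrays correlated with each other at 0.972 to 0.984 (Pearson's r over all genes, as a description). Replicates 3 and 4 differed by at least 1 in 1078 of the genes above the olfactory level and replicates 1 and 2 in 1130, whereas the other 4 pairs differed in 1413 to 2186. Replicate 3 stood apart in its Y-linked genes. *Eif2s3y*, which encodes a translation initiation subunit, read 3.98, 4.14, 9.34 and 4.16 on replicates 1 to 4. The histone demethylase genes *Kdm5d* (2.53, 2.86, 8.95 and 3.01) and *Uty* (3.77, 3.45, 7.11 and 2.57) were likewise highest on replicate 3. Of 32 Y-linked genes measured, these 3 were the ones on replicate 3 that passed the olfactory level and exceeded each other array by at least 2, and no gene met both conditions on replicates 1, 2 or 4. Passing the level alone did not set replicate 3 apart, since 7, 5, 10 and 6 Y-linked genes did so on replicates 1 to 4. *Sry* was above it on every array (5.94, 5.29, 5.86 and 5.91). The labels give no sex for any culture, and the main counts are also given without this array.

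The label of the cultures was checked against 4 myotube markers. *Acta1*, the skeletal muscle alpha-actin gene, read 18.01, 18.62, 18.81 and 18.68, a mean of 18.53 ± 0.36 (SD, n = 4 arrays). *Myh3*, the embryonic myosin heavy chain, read 16.89, 16.29, 16.8 and 16.89. *Ankrd1*, which encodes a stretch-responsive ankyrin repeat protein bound to titin, read 16.33, 16.7, 16.54 and 15.41. All 3 had means above the 99th percentile of all genes, and the arrays lay at most 0.80, 0.60 and 1.29 apart. *Myog*, the transcription factor of terminal differentiation, read 10.65, 9.94, 9.66 and 10.57, lower on replicates 2 and 3 than on the other two. *Rhoa* itself read 11.16, 11.39, 11.08 and 11.39 (11.26 ± 0.16).

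Many of the brightest rows belonged to the contractile apparatus, the ribosome and the mitochondrial respiratory chain. Of the 30 brightest named genes, 11 were contractile genes (striated muscle myosin heavy chains, all myosin light chains and actins with their non-muscle forms, tropomyosins, troponins, and filament and Z-disc genes), 8 encoded ribosomal proteins and 4 respiratory chain or ATP synthase subunits. Among the 100 brightest the counts were 17, 27 and 23, against 66 contractile, 64 ribosomal protein and 87 respiratory chain genes measured in all. *Mylpf*, the fast regulatory myosin light chain, was the brightest gene with 19.53, 19.54, 19.72 and 19.71. The cytochrome c oxidase subunits *Cox6c* (19.55 ± 0.06) and *Cox7c* (19.34 ± 0.08) and the ribosomal protein *Rpl41* (19.10 ± 0.07) followed. The 4 arrays lay close together in these rows, and the SD of *Mylpf* was 0.10.

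The other 7 of these 30 genes lay outside those families. *Cdkn1a* encodes p21, the inhibitor of cyclin-dependent kinases that holds differentiating myoblasts out of the cycle, and read 18.5, 18.47, 18.89 and 18.56. *Mymk* encodes Myomaker, the membrane protein that myoblasts need for fusion, and read 19.37, 18.27, 18.27 and 18.47, highest on replicate 1. *Cryab*, a small heat shock protein that protects desmin and titin, lay at 18.59 ± 0.10. *Atp2a1*, the fast calcium pump of the sarcoplasmic reticulum, read 17.89, 18.67, 19.34 and 18.36, lowest on replicate 1 and highest on replicate 3. The calcium-binding *S100a6*, the ferritin heavy chain *Fth1* and the superoxide dismutase *Sod1* completed the set at 18.50, 18.39 and 18.10.

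All 9 myosin heavy chains of striated muscle were measured, and 8 lay above the olfactory level. *Myh8*, the perinatal chain, read 17.51, 18.26, 18.68 and 18.23. *Myh1*, the fast IIX chain, read 16.92, 17.82, 18.56 and 17.74. Both were lowest on replicate 1 and highest on replicate 3, by 1.17 and 1.64. The embryonic *Myh3* had no such order (16.72 ± 0.29).

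The other adult chains differed widely between the arrays. *Myh4*, the fast IIB chain, read 11.37, 13.43, 16.57 and 15.88, so that replicate 3 lay 5.20 above replicate 1. *Myh2*, the fast IIA chain, read 6.86, 11.43, 11.67 and 8.53. *Myh7*, the slow chain shared with the heart, read 12.46, 13.54, 13.76 and 10.81. The arrays did not keep 1 order: replicate 4 was among the high arrays for *Myh4* and the lowest for *Myh7*.

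*Myh7b*, another slow-type chain, lay at 7.40 ± 1.03. The extraocular *Myh13* (5.17 ± 0.16) was just above the olfactory level and the atrial *Myh6* (4.17 ± 0.62) below it. Among the non-muscle and smooth muscle chains, *Myh9* reached 9.55 ± 0.84 and *Myh10* 5.62 ± 0.62, and *Myh11* (4.37) and *Myh14* (4.20) did not pass the level.

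Of 12 myosin light chains, 11 lay above the olfactory level. *Myl4*, the light chain of the embryo and the atrium, read 19.07, 18.98, 19.08 and 19.1, and *Myl1*, the fast essential chain, lay at 18.65 ± 0.13. Both differed less between arrays than the median gene above the olfactory level, whose SD was 0.38, but rows this bright have little room to differ after normalization. *Myl2*, the slow and ventricular regulatory chain, read 10.31, 13.38, 13.31 and 12.02, lowest on replicate 1. *Myl3*, its essential partner in slow fibres, lay near the olfactory level on every array (5.43, 5.53, 6.07 and 5.21).

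The light chains of non-muscle myosin ran the other way. *Myl9*, found in smooth muscle and non-muscle cells, read 10.34, 9.78, 7.31 and 7.21, so replicates 1 and 2 lay above both others. *Myl12a* (16.82 ± 0.58), *Myl12b* (13.21 ± 0.67), *Myl6* (16.35 ± 0.49) and *Myl6b* (14.61 ± 0.52) were each lowest on replicate 3 or 4. *Myl10* (5.32) and the atrial *Myl7* (4.83) were at or near the olfactory level.

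**Figure D2:**
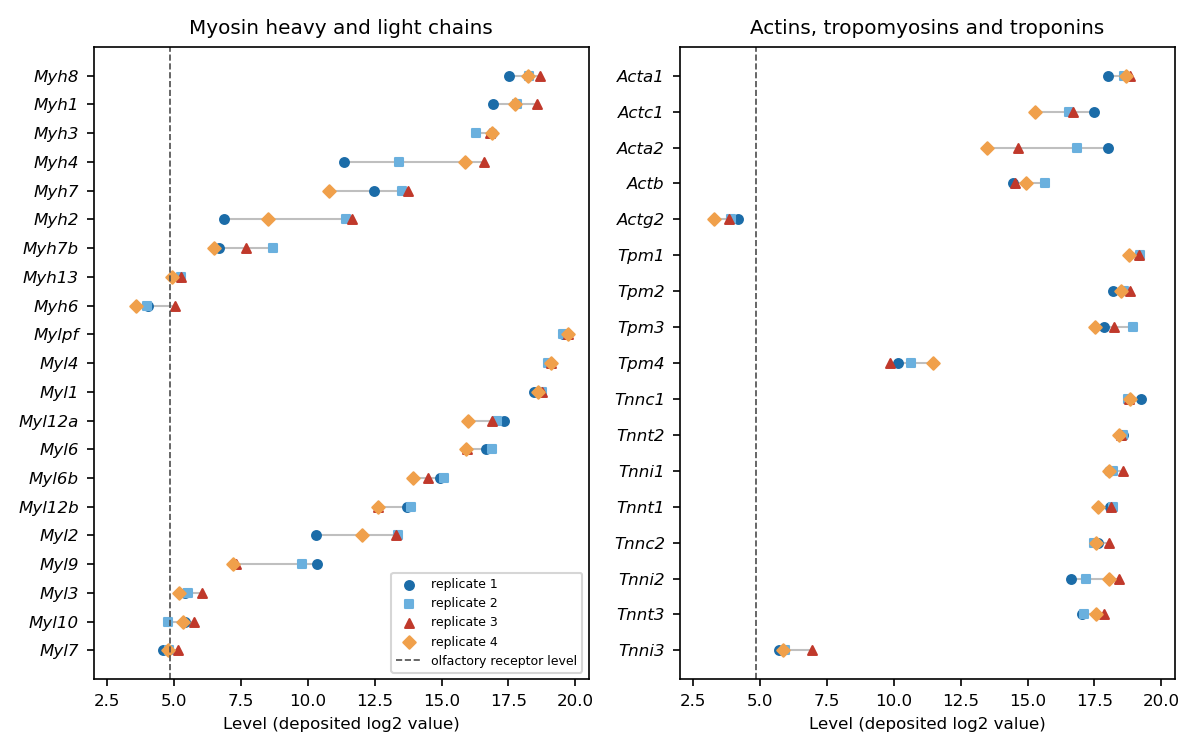
Level (x axis, deposited log2 value) of each myosin chain (left) and each actin, tropomyosin and troponin (right) on the 4 control arrays, 1 symbol per array, with a grey line from the lowest to the highest. The dashed line is the olfactory level of 4.86. The points of *Mylpf*, *Myl4* and *Tnnt2* span 0.19, 0.12 and 0.18, and those of *Myh4*, *Myh2* and *Acta2* span 5.20, 4.81 and 4.53.

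Of the 5 actins measured, the skeletal *Acta1* was bright on every array. *Actc1*, the cardiac alpha-actin that precedes *Acta1* in developing muscle, read 17.5, 16.54, 16.68 and 15.27. *Acta2*, the smooth muscle alpha-actin that young muscle cells and myofibroblasts also use, read 18.01, 16.84, 14.66 and 13.48. Replicate 1 was the highest and replicate 4 the lowest array for both, by 2.23 and 4.53, whereas *Acta1* was lowest on replicate 1. The cytoplasmic *Actb* read 14.47, 15.65, 14.55 and 14.94, and the enteric *Actg2* (3.80 ± 0.38) was below the olfactory level.

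*Acta2* is also a smooth muscle marker, so the other members of that list are given with it. *Tagln* read 7.03, 8.75, 6.33 and 6.49, and *Smtn* 10.54 ± 0.16. The smooth muscle myosin *Myh11*, the calponin *Cnn1* and *Actg2* were below the olfactory level on average, at 4.37, 3.63 and 3.80. In all 3 of 6 smooth muscle markers passed it.

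The skeletal and cardiac actin genes are textbook targets of serum response factor, which binds the CArG box and is regulated by actin dynamics downstream of *RhoA*. The 250 bases before the annotated start of *Acta1*, *Actc1*, *Acta2* and *Myh4* are shown because these 3 actins and this myosin had different patterns over the arrays. They are from RefSeq (GRCm38.p6), 5′ to 3′ on the strand of the gene, and capitals mark a CArG box (its strict form, with 6 A or T bases between CC and GG, which reads the same way on both strands).
Acta1 (chr8:123894776-123895025, minus strand): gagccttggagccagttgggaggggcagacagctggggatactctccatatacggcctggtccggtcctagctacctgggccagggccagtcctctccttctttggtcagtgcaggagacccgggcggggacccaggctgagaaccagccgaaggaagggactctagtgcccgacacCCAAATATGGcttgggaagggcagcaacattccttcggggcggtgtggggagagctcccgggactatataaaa
Actc1 (chr2:114052876-114053125, minus strand): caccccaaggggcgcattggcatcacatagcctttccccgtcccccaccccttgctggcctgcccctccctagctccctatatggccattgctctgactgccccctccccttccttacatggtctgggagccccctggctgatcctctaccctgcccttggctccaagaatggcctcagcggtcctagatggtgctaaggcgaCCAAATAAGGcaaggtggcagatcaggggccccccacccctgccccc
Acta2 (chr19:34255374-34255623, minus strand): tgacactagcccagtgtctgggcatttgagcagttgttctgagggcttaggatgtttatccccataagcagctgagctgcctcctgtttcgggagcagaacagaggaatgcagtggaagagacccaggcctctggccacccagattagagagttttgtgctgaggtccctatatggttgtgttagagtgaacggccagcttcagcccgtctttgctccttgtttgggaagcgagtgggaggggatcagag
Myh4 (chr11:67237562-67237811, plus strand): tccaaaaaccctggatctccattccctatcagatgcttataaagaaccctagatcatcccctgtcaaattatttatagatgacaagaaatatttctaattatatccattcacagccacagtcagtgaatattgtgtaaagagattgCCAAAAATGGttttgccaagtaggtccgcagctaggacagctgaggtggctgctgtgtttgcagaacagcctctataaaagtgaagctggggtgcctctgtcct
The box began 73 bases before the start of *Acta1*, 47 before that of *Actc1* and 104 before that of *Myh4*, and the *Acta2* window held no strict match. It does hold ccctatatgg and ccttgtttgg, which have a C or a G among the bases between CC and GG. Such looser forms were not searched for, so the lack of a strict match does not mean the lack of a CArG box. A strict match stood in 482 of 32851 promoter windows of this length (1.47%). That share is per window, whereas the contractile genes that follow are counted per gene. A gene with several windows counted where any of them held the box, so the shares are unlike in unit. Of the 61 contractile genes above the olfactory level, 49 had a window in the table and 8 of them held the box, namely *Acta1*, *Actc1*, *Ldb3*, *Myh4*, *Myl3*, *Myl6*, *Myl9* and *Myom1*. The E-box CANNTG, the motif of the myogenic factors, stood in 66.2% of all windows, and in those of *Acta1*, *Acta2* and *Myh4* but not of *Actc1*. A match describes the letters and not the binding of a factor, and *Acta1* and *Myh4*, which both hold a CArG box, had an SD of 0.36 and 2.38.

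Tropomyosins, which wind along the actin filament, were steady apart from *Tpm3* and *Tpm4*. *Tpm1* read 19.15, 19.2, 19.16 and 18.79 and *Tpm2* 18.21, 18.6, 18.84 and 18.5. *Tpm3*, whose muscle form is the slow alpha-tropomyosin, read 17.84, 18.93, 18.24 and 17.53. *Tpm4*, a cytoskeletal form, lay at 10.54 ± 0.70.

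All 8 troponins lay above the olfactory level, and fast and slow forms were present side by side. The slow set consisted of *Tnnc1* (18.91 ± 0.22), *Tnni1* (18.21 ± 0.26) and *Tnnt1* (18.09, 18.19, 18.1 and 17.62). The fast set consisted of *Tnnc2* (17.68 ± 0.25), *Tnnt3* (17.39 ± 0.39) and *Tnni2*, which read 16.64, 17.19, 18.41 and 18.05. *Tnni2* was therefore higher on replicates 3 and 4 than on both others. The cardiac troponin T gene *Tnnt2*, which is expressed in embryonic skeletal muscle, was steady at 18.50 ± 0.08, whereas the cardiac troponin I gene *Tnni3* (6.11 ± 0.56) was dim.

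Counted over the fibre type lists, which overlap with the families above, all 10 slow genes and all 14 fast genes lay above the olfactory level, with median levels of 16.39 and 16.89. An SD of at least 1 was found for 2 slow and 4 fast genes. Over all genes above the olfactory level this SD was reached by 6.57% (646 of 9832). *Mybpc2*, the fast myosin-binding protein C, read 6.23, 9.14, 13.6 and 11.78, a range of 7.37. *Pvalb*, the calcium buffer of IIB and IIX fibres, read 8.01, 7.75, 12.32 and 10.67. Together with *Myh4* and *Myh2* these are the 4 variable fast genes. *Mybpc2*, *Pvalb* and *Myh4* were higher on replicates 3 and 4 than on replicates 1 and 2, and *Myh2* was not. The 8 developmental genes measured had a median of 16.96, and 1 of them, *Igf2*, reached an SD of 1.

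Of 29 genes of the titin filament, the M-band and the Z-disc, 27 lay above the olfactory level. Titin itself (*Ttn*, 16.65 ± 0.51), nebulin (*Neb*, 16.75 ± 0.25), the leiomodin *Lmod3* (16.61 ± 0.21) and the desmin filament gene *Des* (16.42 ± 0.42) were bright on every array. *Mybpc1*, the slow myosin-binding protein C, read 15.32, 17.53, 17.63 and 17.33, and so was low on replicate 1 alone. *Tmod4*, which caps actin filaments in skeletal muscle, read 6.51, 11.04, 12.57 and 8.21. The cardiac *Mybpc3* (3.29) and nebulette, *Nebl* (3.63), were below the olfactory level.

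All 19 genes of the calcium store and excitation lay above the olfactory level. Beside *Atp2a1*, the slow calcium pump *Atp2a2* read 16.38, 16.9, 17.6 and 17.37, and *Casq1*, the fast calsequestrin, 15.28, 16.47, 17.28 and 16.54. Both were lowest on replicate 1 and highest on replicate 3. *Ryr1*, the calcium release channel, read 9.99, 10.47, 12.39 and 12.26. *Sln* encodes sarcolipin, an inhibitor of the calcium pumps, and read 10.04, 15.58, 14.26 and 14.85, low on replicate 1 alone. *Pln*, its relative of slow and cardiac muscle, read 4.02, 7.76, 5.04 and 4.19, high on replicate 2 alone. *Clcn1*, the chloride channel of adult fibres, stayed near the olfactory level (5.12 ± 0.46).

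The embryonic and the adult subunit of the acetylcholine receptor were above the olfactory level on all arrays, and the arrays differed in the adult one. *Chrng*, the embryonic gamma subunit, read 15.17, 14.2, 14.33 and 14.56. *Chrne*, the epsilon subunit that replaces it at adult synapses, read 8.08, 7.14, 13.61 and 10.66, a range of 6.47. The shared subunits *Chrna1* (16.25 ± 0.47), *Chrnd* (14.29 ± 0.17) and *Chrnb1* (10.63 ± 0.67) and the receptor kinase *Musk* (16.26 ± 0.31) had no SD of 1. The anchoring genes *Rapsn* (8.24 ± 0.63) and *Dok7* (7.12 ± 0.26) were dimmer rows.

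Muscle isoforms of metabolic enzymes were above the olfactory level in 14 of 14 cases, and 5 of them had an SD of at least 1. For all genes the share above the level was 50.4%, and 6.57% of those had such an SD. *Ckm*, the muscle creatine kinase, read 9.41, 11.63, 14.16 and 12.13, lowest on replicate 1 and highest on replicate 3 by 4.75. Its mitochondrial partner *Ckmt2* read 10.43, 13.7, 13.58 and 14.23, and *Cox7a1*, the muscle form of a cytochrome c oxidase subunit, 11.8, 14.64, 15.32 and 16.03. Both were low on replicate 1. *Ampd1*, the muscle AMP deaminase, read 10.36, 12.9, 14.32 and 9.57, and *Eno3*, the muscle enolase, lay at 13.75 ± 1.28.

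*Aldoa* (17.68 ± 0.79), the cytochrome c oxidase subunit *Cox6a2* (17.52 ± 0.54) and the myoglobin gene *Mb* (16.99 ± 0.78) were the brightest of this list. The glucose transporter *Slc2a4* was at 7.38 ± 0.40. Of the isoforms used by most tissues, 8 of 9 lay above the olfactory level and none reached an SD of 1. *Ckb*, the brain-type creatine kinase, read 11.98, 10.2, 10.17 and 10.02, so replicate 1 was high for *Ckb* and low for *Ckm*.

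The regulators of the muscle programme ranged from background to bright. The satellite cell factor *Pax7* was below the olfactory level on all 4 arrays (3.77, 3.82, 3.84 and 3.45), and *Pax3* lay at 5.56 ± 0.38. *Myod1* read 6.39, 6.93, 7.85 and 7.94 and *Myf5* 9.26, 9.13, 8.19 and 10.81. *Mef2c*, a late partner of the myogenic factors, was the brightest regulator row at 16.35, 16.83, 17.0 and 16.02, followed by *Mef2d* (14.41 ± 0.28) and *Mef2a* (13.78 ± 0.71). *Myf6*, the factor of maturing fibres, read 9.11, 11.91, 10.91 and 10.04. *Srf*, the CArG box factor, lay at 7.33 ± 0.35.

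Of 13 fusion genes, 10 lay above the olfactory level. In contrast to *Mymk*, its partner *Mymx*, which encodes Myomixer and completes membrane merger, read 14.1, 10, 7.43 and 10.43, a range of 6.67. Replicate 1 was the highest array for both genes. The tetraspanin *Cd81* (15.95 ± 0.37), the integrin *Itgb1* (15.66 ± 0.32) and the adhesion protein gene *Jam2*, which read 14.19, 12.31, 11.99 and 12.77, followed in level. The receptors *Adgrb1* (4.43) and *Adgrb3* (3.21) and the adhesion gene *Kirrel* (4.40) did not pass the olfactory level.

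Of 19 genes of satellite cells and proliferating myoblasts, 12 lay above the olfactory level, and the median of the list was 5.20. Of all genes 50.4% lay above that level, and their median was 4.90. The laminin receptor subunit *Itga7* (14.27 ± 0.32), which fibres also use, *Myf5* (9.35 ± 1.09) and the syndecan *Sdc4* (9.24 ± 0.57) were the brightest. The quiescence receptor *Calcr* (3.65), the surface marker *Cd34* (3.96) and the growth factor receptor *Fgfr4* (4.01) were below the level. *Sdc3* read 4.19, 4.52, 4.37 and 6.51, above the olfactory level on replicate 4 alone. The RNA is from the whole culture, so fewer cells of a type and less RNA per cell cannot be told apart, here and in every gene group that follows.

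Replication and mitosis genes had a median of 4.88, and 16 of 29 passed the olfactory level, beside 50.4% and a median of 4.90 for all genes. *Pcna*, the replication clamp that also serves DNA repair, was the brightest row of the list with 13.18, 13.75, 13.38 and 13.63. The ribonucleotide reductase subunits followed, *Rrm1* at 10.18 ± 0.49 and *Rrm2* at 10.55, 9.41, 7.69 and 8.98. The mitotic genes *Mki67* (2.82, 3.94, 3.31 and 5.6), *Plk1* (3.42), *Cdc20* (3.81) and *Aurkb* (4.01) lay below the level in the mean. Replicate 4 was the only array on which *Mki67* passed 4.86. *Cdk1*, the mitotic kinase, read 5.79, 6.88, 4.88 and 7.37, also highest on replicate 4.

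On the side of cell cycle exit, 7 of 10 genes lay above the olfactory level, and none reached an SD of 1. Beside *Cdkn1a* these were *Ccnd3*, the cyclin D of differentiating muscle (14.83 ± 0.40), *Rb1*, the retinoblastoma gene that keeps myotube nuclei out of S phase (12.40 ± 0.76), *Cdkn1b* (10.73 ± 0.36), *Cdkn2c* (8.84 ± 0.99), *Rbl2* (8.44 ± 0.63) and *Ccnd2* (6.45 ± 0.87). The cell cycle activator *E2f1* (2.96 ± 0.22) and the imprinted inhibitor *Cdkn1c* (3.44 ± 0.32) were below it.

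Matrix genes held some of the largest differences between the arrays. Of 28 genes of collagens and matrix, 17 lay above the olfactory level and 7 of them had an SD of at least 1. Over all genes, 50.4% lay above the level and 6.57% of those had such an SD. *Sparc*, a collagen-binding glycoprotein, read 17.4, 16.78, 14.07 and 14.61. *Lox*, the enzyme that cross-links collagen, read 12.42, 12.5, 7.53 and 8.48. The proteoglycan *Bgn* read 11.28, 13.07, 7.59 and 10.08, and the matricellular *Thbs1* 9.09, 12.54, 6.69 and 7.86. In these 4 genes both replicate 1 and replicate 2 lay above replicates 3 and 4, and replicate 3 was the lowest array.

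*Fn1*, the fibronectin gene, had another order (6.18, 10.13, 6.24 and 9.31), high on replicates 2 and 4. Of the fibrillar collagen chains, *Col5a2* read 6.23, 7.58, 5.77 and 5.87, highest on replicate 2. *Col1a1* was at 5.91 ± 0.12, *Col1a2* at 4.66 to 5.18 and *Col3a1*, below the olfactory level, at 4.78 ± 0.62. Of the laminin chains of the muscle basement membrane, *Lamc1* (10.87 ± 0.45) and *Lama2* (9.97 ± 0.47) were steady. *Lamb1* was not, and read 6.58, 8.1, 4.41 and 6.86. *Col6a2* (3.24), *Fmod* (3.29), *Lama4* (3.30) and *Col6a3* (3.74) were the dimmest rows of the list.

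Of 14 matrix proteases and inhibitors, 7 passed the olfactory level, a share near the 50.4% of all genes. The inhibitors *Timp2* (13.77 ± 0.35) and *Timp1* (11.74, 13.25, 11.16 and 13.56) were the brightest, and *Adamts5*, a proteoglycan-cleaving enzyme, read 10.62, 10.01, 5.19 and 7.35. *Mmp9*, *Mmp13* and *Adam8*, the matrix enzymes that the study followed in muscle, were below the olfactory level on all 4 arrays. *Mmp9* read 2.68, 2.99, 2.75 and 2.78, *Mmp13* 4.16, 4.53, 3.76 and 3.99, and *Adam8* 2.88, 3.33, 3.05 and 3.18. The chemokine genes *Cx3cl1* (4.24, 3.7, 3.38 and 3.54) and *Ccl3* (3.46, 3.31, 3.33 and 3.44) were likewise below it. At this signal a difference in these 5 genes between arrays cannot be read as a difference in RNA.

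Other secreted factors were present. *Igf2*, a growth factor of developing muscle, read 18.51, 17.77, 15.28 and 17.25, lowest on replicate 3. *Fst*, the follistatin gene whose product blocks myostatin, read 15.32, 13.81, 13.15 and 10.79. The chemokines *Ccl2* (9.07, 7.18, 5.91 and 5.57) and *Ccl7* (8.04, 6.74, 4.96 and 5.69) were highest on replicate 1. *Fgf21*, a stress-induced myokine, read 8.2, 7.53, 10.73 and 9.39. The list of 16 genes also holds the enzyme gene *Ptgs2* (8.21 ± 1.06), which is not a secreted factor. Of these 16, 11 passed the olfactory level and 7 had an SD of at least 1, with *Ptgs2* in both counts. Such an SD was found for 6.57% of all genes above the level.

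Markers of other cell types that a sorted muscle culture could hold were near the olfactory level. Those above it were 2 of 11 for fibroblasts (*Col1a1* and *Lum*), 2 of 14 for macrophages and leukocytes (*Fcgr1* at 5.23 and *Mrc1* at 5.21), 1 of 6 for lymphocytes (*Cd4* at 6.17), 0 of 9 for endothelial cells, 1 of 6 for adipocytes (*Pparg* at 5.95) and 1 of 3 for Schwann cells (*Sox10* at 4.92). Defining genes of these types were at background, with the fibroblast receptor gene *Pdgfrb* at 3.99, the macrophage gene *Adgre1* at 3.93, the leukocyte gene *Ptprc* at 4.75, the endothelial gene *Pecam1* at 3.35 and the fat cell gene *Adipoq* at 3.19. The fibroblast list had a median of 3.63, 5.02, 3.61 and 3.80 on replicates 1 to 4, highest on replicate 2, where *Dcn* (5.40), *Pdgfrb* (5.09) and *Dpt* (5.02) also passed 4.86. These fibroblast values moved with *Fn1*, *Thbs1* and *Bgn* on replicate 2, and their part in those rows was not tested.

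Among tenocyte markers, *Scx*, the tendon transcription factor, was bright at 12.04, 10.9, 10.55 and 11.36, whereas its companions *Mkx* (4.36) and *Tnmd* (3.36) were below the olfactory level. The erythroid gene *Alas2* was at 4.73.

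Of 10 genes of mechanical signalling, 8 lay above the olfactory level and 5 had an SD of at least 1. Among all genes 50.4% lay above the level, and 6.57% of those had such an SD. *Ankrd2*, a stretch-responsive relative of *Ankrd1* found in slow fibres, read 5.43, 7.55, 8.69 and 13.61, a range of 8.18 with replicate 4 the highest, whereas replicate 4 was the lowest array for *Ankrd1*. The third member, *Ankrd23*, read 11.33, 13.92, 13.46 and 12.08. *Ccn1*, a target of Yap and of serum response factor, lay at 12.99 ± 0.78, and its relative *Ccn2* read 8.35, 7.7, 5.38 and 5.64. *Amotl2*, another Yap target, read 8.83, 8.95, 6.32 and 5.01. Vinculin, *Vcl*, was at 13.97 ± 0.55. Of 7 genes of *RhoA* signalling and related small GTPases above the level, none reached an SD of 1, with *Cdc42* at 16.39 ± 0.30, *Rac1* at 14.46 ± 0.33 and *Rock1* between 11.58 and 12.5.

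Immediate early genes, the first transcripts that a stimulus induces, were highest on replicate 3 in 11 of 12 cases. Replicate 3 was the highest array for 2031 of all 9832 genes above the level and for 14 of 14 fast fibre genes. It was also the highest for 6 of 10 slow fibre genes and 12 of 19 calcium store genes. The counts were 9 of 14 for muscle isoforms of metabolic enzymes and 16 of 27 for titin filament, M-band and Z-disc genes. They were 1 of 8 for developmental genes and 2 of 17 for collagens and matrix. Some of these lists share members. *Egr1* read 16.04, 16.58, 17.15 and 16.04, *Fos* 8.14, 10.58, 12.13 and 10.26, *Ier2* 5.55, 7.2, 10.09 and 8.31, and *Atf3* 10.04, 10.4, 12.86 and 10.41. The exception was *Fosl1*, which was highest on replicate 2. All 12 were above the olfactory level, and 5 had an SD of at least 1, beside 50.4% of all genes and 6.57% of those above the level. The metallothioneins *Mt1* (12.37, 13.91, 15.05 and 15.31) and *Mt2* (13.25, 13.6, 15.78 and 16.41), which bind zinc and respond to metal and glucocorticoids, were higher on replicates 3 and 4. Of the 10 stress genes measured, which include the metallothioneins, all lay above the olfactory level, with a median of 12.56. An SD of at least 1 was found for 3 of them. The third, beside *Mt1* and *Mt2*, was *Ddit3* (10.85, 12.79, 13.46 and 11.08). The heat shock gene *Hspb1* (15.77 ± 0.28) and *Hspa5* (15.08, 15.38, 15.03 and 14.05) were the brightest of this list. The heat shock genes *Hspa1a* (4.99 ± 0.20) and *Hspa1b* (6.40 ± 0.24) were low and steady.

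An adenovirus was present in all 4 cultures, so interferon-stimulated genes were examined. Of 15, 4 lay above the olfactory level, beside 50.4% of all genes. *Ifit2* (6.78, 6.75, 4.33 and 4.4) and *Ifit3* (6.05, 6.94, 4.45 and 4.59) passed it on replicates 1 and 2 alone. *Bst2* read 5.19, 6.11, 6.18 and 6.95, and *Zbp1* 5.18 ± 0.19. The sensors and effectors *Irf7* (2.42), *Oas1a* (3.17), *Rsad2* (3.35) and *Cxcl10* (3.50) were below it. No culture without virus was analysed here, so the level before transduction is not known.

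Among genes at or above the 90th percentile of levels, the 10 of smallest SD were *Chchd2*, *D8Ertd738e*, *Ndufs6*, *Dnajc19*, *Sars*, *Psmd12*, *Usp7*, *Ciao2a*, *Lamp1* and *Zcrb1*. *Chchd2*, a mitochondrial intermembrane protein gene, read 16.21, 16.18, 16.18 and 16.2, an SD of 0.015. These 10 were picked by their SD on these same arrays, so other genes at such levels vary more by construction. Of the genes often used to normalise assays, *Gapdh* lay at 17.51 ± 0.17, *Ppia* at 16.76 ± 0.20, *Hprt* at 12.39 ± 0.25 and *Actb* at 14.90 ± 0.54. The 12 such genes measured had a median SD of 0.39, beside 0.38 for all genes above the olfactory level. *B2m*, which encodes the light chain of MHC class I, read 17.29, 16.24, 14.24 and 15.6, so replicate 1 lay 3.05 above replicate 3. The ribosomal protein genes above the level had a median SD of 0.20, the respiratory chain genes 0.24 and the contractile genes, non-muscle forms included, 0.54.

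**Figure D3:**
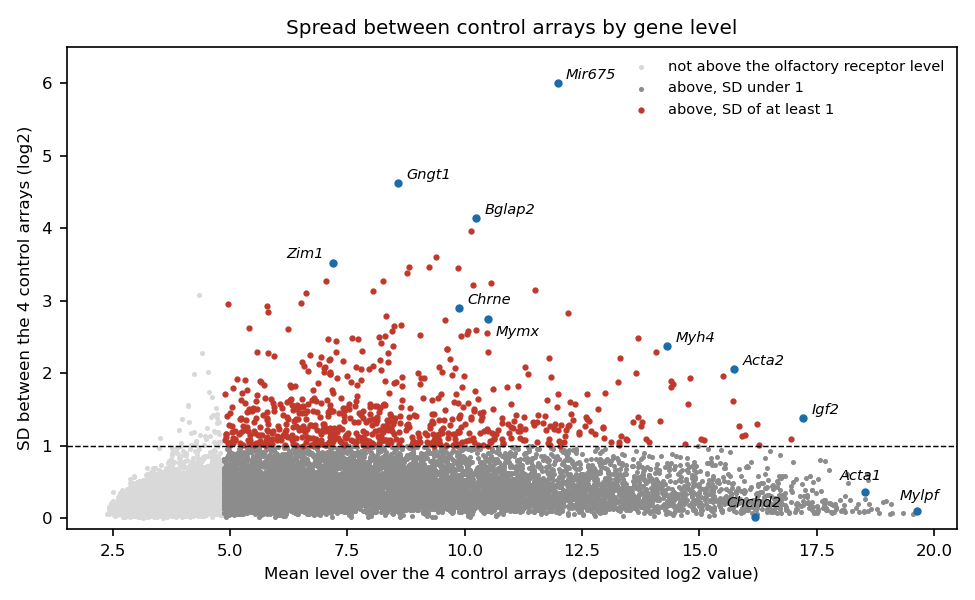
SD between the 4 control arrays (y axis, log2 units) by mean level (x axis, deposited log2 value), 1 point per gene, light grey below the olfactory level, dark grey above it with an SD under 1 and red above it with an SD of at least 1. Blue points mark named genes. *Mir675* and *Gngt1* lie at the top, and the bright genes *Chchd2*, *Mylpf* and *Acta1* lie at the bottom right.

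Of the 9832 genes above the olfactory level, 646 (6.57%) had an SD of at least 1, 86 of at least 2 and 17 of at least 3. When these genes were divided by level into 10 bins of nearly equal size, the share was 3.34% in the dimmest bin, 9.04% in the sixth and 4.27% in the brightest. Of the genes above the level on all 42 lists analysed, some of them not described in the text, 66 of 290 (22.8%) had such an SD. These lists were chosen with earlier results of these data known. Among the 646 genes, the highest array was replicate 1 in 192, replicate 4 in 185, replicate 2 in 142 and replicate 3 in 127. The lowest array was replicate 1 in 224 and replicate 3 in 221, against 129 for replicate 4 and 72 for replicate 2. Without replicate 3 the count of genes with an SD of at least 1 was 703, of which 498 were among the 646.

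A principal component analysis of the genes above the level placed replicate 1 at one end of the first component, with a score of 52.4, replicate 2 at 23.1 and replicates 3 and 4 at -37.1 and -38.4. This component held 58.1% of the variance. The second, with 22.4%, set replicate 4 (34.6) apart from replicate 3 (-31.9), and the third, with 19.5%, replicate 2 (35.8) from replicate 1 (-24.0). No label says what the replicates differ in beyond their number.

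**Figure D4:**
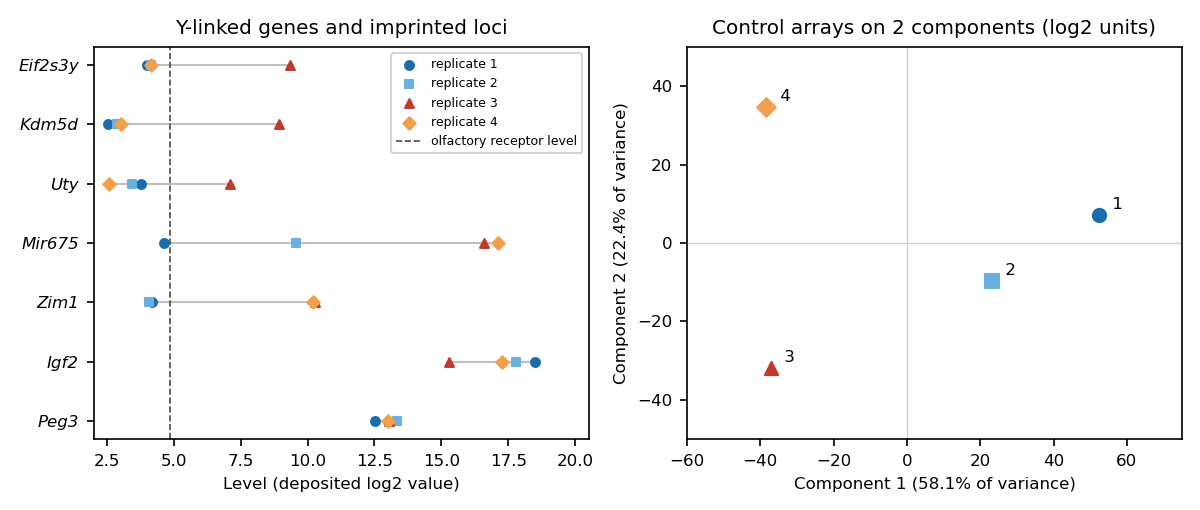
Left, level (x axis, deposited log2 value) of 3 Y-linked genes and of 4 genes at imprinted loci on the 4 control arrays, with the olfactory level as a dashed line. Right, scores of the 4 arrays on components 1 and 2 of the genes above the olfactory level, in log2 units. *Eif2s3y*, *Kdm5d* and *Uty* are high on replicate 3 alone, and *Mir675* and *Zim1* on replicates 3 and 4.

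The gene of largest SD was *Mir675*, with 4.62, 9.56, 16.61 and 17.12. Replicate 1 was below the olfactory level, and replicate 4 lay 12.5 above replicate 1. *Mir675* encodes a microRNA processed from the *H19* long non-coding RNA, an imprinted transcript that is abundant in foetal muscle. On chromosome 7 the hairpin lies within the *H19* gene in the RefSeq annotation, and the row also carries an accession other than that of the hairpin, so the row cannot tell the microRNA from the longer transcript. The mature sequences, from RefSeq with the seed (bases 2 to 8) in capitals, show what this locus encodes.
mmu-miR-675-5p (chr7:142577112-142577133, minus strand, GRCm38.p6): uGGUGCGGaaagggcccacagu
mmu-miR-675-3p (chr7:142577078-142577099, minus strand, GRCm38.p6): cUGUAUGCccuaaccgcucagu
The seeds differ from each other. The row does not separate the mature forms from the transcript that holds them.

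*Zim1*, an imprinted zinc finger gene, was at background on replicates 1 and 2 and present on both others (4.19, 4.08, 10.29 and 10.19). Its neighbour *Peg3* on chromosome 7, which is expressed from the other parental allele, was steady at 12.98 ± 0.33. *Igf2*, the neighbour of *H19*, is likewise expressed from the other parental allele. It was lowest on replicate 3 and highest on replicate 1, where *Mir675* was at background. Replicate 4 was high for both *Mir675* and *Igf2* (17.12 and 17.25).

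Of the other genes with the largest SD, *Gngt1*, a G protein gamma subunit best known from photoreceptors, read 12.17, 12.54, 2.91 and 6.74. *Bglap2* and *Bglap*, which encode the bone protein osteocalcin, read 16.17, 9.94, 7.15 and 7.69 and 15.79, 9.9, 7.04 and 7.81. They are near-identical copies, so their rows may share signal. *Ctla2a*, which resembles the propeptide of a cysteine protease, read 11.76, 12.92, 5.16 and 7.7. In all 4 genes replicates 1 and 2 lay above replicates 3 and 4, with replicate 3 the lowest.

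*Gja5*, the connexin 40 gene, read 13.53, 10.55, 6.6 and 6.26, the keratin *Krt80* 13.97, 10.96, 8.63 and 5.84, and *Parm1*, a mucin-like membrane protein gene, 12.74, 10.37, 6.55 and 5.43. The matrix proteoglycan *Aspn* read 10.97, 6.73, 4.41 and 4.35. In these 4 genes replicate 1 was the highest array and replicate 4 the lowest. The scavenger receptor *Colec12* (8.8, 9.34, 4.32 and 3.62), the fibulin *Efemp1* (8.79, 12.38, 4.5 and 7.4) and the actin-associated *Fam107a* (13.78, 12.51, 6.55 and 9.37) were also higher on replicates 1 and 2 than on both others.

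Other genes were low on replicate 1, some of them on further arrays as well. *Ndrg2*, a gene of differentiating muscle and brain, read 7.01, 11.62, 13.65 and 13.73. *Prr15* read 4.37, 6.6, 9.89 and 11.29, and *Cox6b2*, known as the testis form of a cytochrome c oxidase subunit, 3.34, 6.66, 6.88 and 11.3. *Armh4* was present on replicate 3 (8.95) and replicate 4 (5.43) and at background on replicates 1 and 2 (2.87 and 2.59). *Csta2*, a stefin gene with close copies in the mouse genome, read 4.21, 4.38, 4.4 and 10.17, and so passed the olfactory level on replicate 4 alone.

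**Figure D5:**
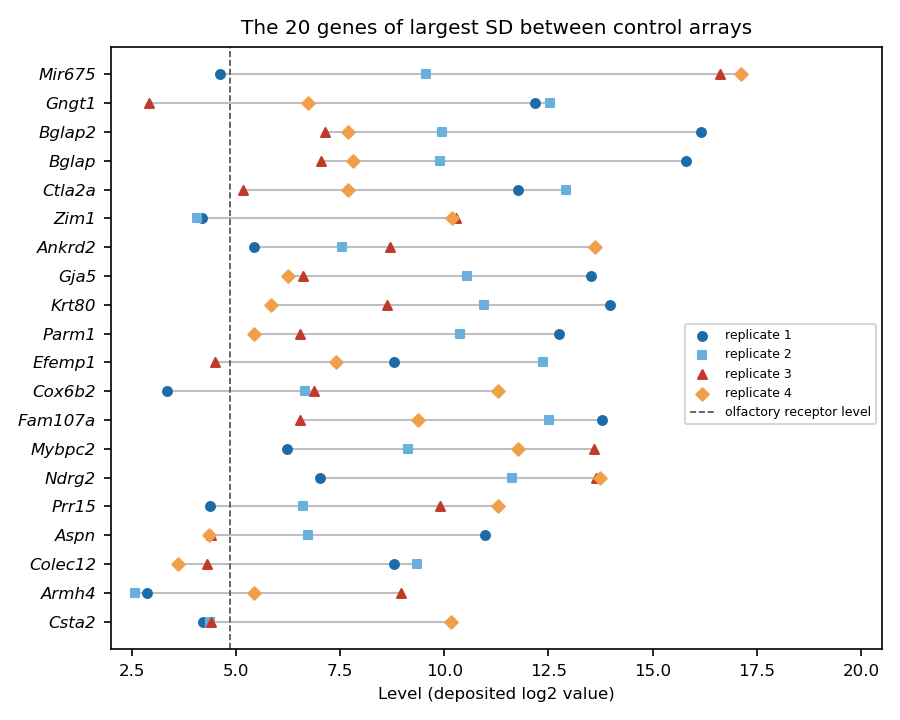
Level (x axis, deposited log2 value) of the 20 genes of largest SD on the 4 control arrays, ordered by SD from top to bottom, 1 symbol per array, with a grey line from the lowest to the highest and the olfactory level as a dashed line. *Mir675* runs from 4.62 on replicate 1 to 17.12 on replicate 4, and *Bglap2* from 7.15 on replicate 3 to 16.17 on replicate 1.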

How the data were processed

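Total RNA was amplified from 25 ng, and 3.6 µg of target DNA was biotin-labelled per array, per the labels. RNA was extracted on columns per the labels and with TRIzol per the methods. The methods name an Affymetrix gene array, whereas the row identifiers have the form of another Affymetrix mouse design, so the design is not settled. The authors made the deposited log2 values with RMA in Affymetrix Expression Console, which corrects the background, normalizes by quantiles and summarises probes (neither version is stated). The lowest value was 2.05 and the highest 19.89. Array medians were 4.80 to 4.85, with 262 to 273 values per array above 16, beyond the range of a 16-bit scanner, and whether a further step was applied is not stated. No detection calls were used. The precision is limited by having 4 arrays.

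Of 22206 rows, 19572 have 1 gene symbol, 0 several and 2634 are unnamed here, and 55 genes have several rows, of which the row with the highest mean over the 4 control arrays was kept. Means, SDs, correlations and principal components were computed in Python 3.11.15 with numpy 2.4.6 and pandas 2.3.3, and the steps were tested on simulated data with planted spreads. With 1 group there is no contrast, so no test between groups was run and no p-value is given. Single arrays far from the others were found with Dixon's ratio. Genes were called above background where the mean exceeded the 95th percentile of olfactory receptor genes, and variable at an SD of at least 1. The members and lists were chosen with earlier results of these data known. Named are the 4 markers, the 30 brightest genes, all myosins, actins, tropomyosins and troponins, bright and dim members of most other lists, the 20 genes of largest SD, the 10 of smallest SD at or above the 90th percentile, *Rhoa*, Y-linked genes and genes the study followed. The lists of the dystrophin complex, of atrophy ligases with Foxo factors and of translation factors were analysed but have no passage of their own. *Mb*, *Eno3* and other members between the brightest and dimmest of a list were named after their values were seen. A few listed genes were not analysed here. Alternatives were quantile normalization again, median centring, averaging the rows of a gene, the row chosen on all 8 arrays, other background references and each array left out.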

Additional observations from a re-analysis of the deposited data

Results flagged for a closer look

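For 28 of 450 genes examined (6.22%), 1 array lay far from the other 3, with a gap to the nearest of them, as a share of the range, above Dixon's 95% critical value for 4 samples. The critical value is set so that chance gives about 1 in 20 for independent genes. The genes examined were picked in part by their values on these same arrays. The share of 6.22% therefore cannot be tested against that rate, and the genes are listed as a description. The values in parentheses are that share.

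On replicate 3, 5 genes stood out as high. *Eif2s3y* (0.966) and *Kdm5d* (0.925) are Y-linked and were at background on the other arrays. The stress factor *Atf3* (0.869) was 12.86 there against 10.04 to 10.41. *Csf1r* (0.931), a macrophage receptor at 4.32, stayed below the olfactory level and *Cd4* (0.83), at 6.48, lay above it.

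On replicate 4, 9 genes stood out. *Csta2* (0.968) was at 10.17 against background elsewhere. *Sdc3* (0.858), at 6.51, the muscle cadherin *Cdh15* (0.863), at 7.02, and the replication gene *Mcm2* (0.842), at 6.83, were higher there, and the calcium channel subunit *Cacna1s* (0.865), at 12.83, and *Tpm1* (0.878), at 18.79, lower. The shares of *S100b* (0.982), *Plat* (0.837) and *Myh13* (0.938) rest on rows near or below the olfactory level.

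On replicate 1, 7 genes stood out. *Ckb* (0.908), *Chrna1* (0.889), *Tnnc1* (0.872) and *Lamp1* (0.9) were highest there (*Lamp1* with a range of 0.10 in all), and *Mybpc1* (0.87) lowest. *Mbp* (0.875) and *Lama4* (0.875) were below the olfactory level. On replicate 2, *Ccnd2* (0.911), *Tyms* (0.898) and *Foxo3* (0.9) were highest, *Myh3* (0.85) was lowest, and *Kirrel* (0.917), *Col4a1* (0.836) and *Ms4a1* (0.953) had means below the olfactory level.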

How the results depend on the processing

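The counts of genes above the olfactory level and with an SD of at least 1, and the median SD, stayed within 1.5 times their values under each alternative that was run. The lowest correlation between arrays, 0.972 over all genes, was 0.936 over genes above the 99th percentile of olfactory receptor genes, 0.936 over genes above the 95th percentile of 465 vomeronasal, taste receptor, keratin-associated and defensin genes and 0.946 over genes above the level in every array, since dim rows no longer enter. With each array left out in turn it ranged from 0.972 to 0.979. The counts of variable genes then ranged from 580 (without replicate 1) to 804 (without replicate 2), and 432 to 570 of the 646 genes were among them. Of 42 list medians, 4 moved by more than their SD without replicate 1 and 1 without replicate 2, and of the named gene levels 1 moved, *Egr3*, to 4.56 as the mean of its 3 rows. Genes above the level could not be counted with no filter. Leaving out replicate 4 lowered the SD of *Csta2* from 2.92 to 0.10 and that of *Ankrd2* from 3.47 to 1.65, leaving out replicate 1 that of *Bglap2* from 4.14 to 1.48, of *Ndrg2* from 3.15 to 1.20 and of *Aspn* from 3.11 to 1.36, leaving out replicate 3 that of *Eif2s3y* from 2.62 to 0.10 and of *Armh4* from 2.95 to 1.57. No paired analysis was possible because the report has 1 group and no test. Rows near the olfactory level carry little signal over background, and their differences have no reading.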
